A study of Homo sapiens with 6 samples.

Results

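Retained-intron transcripts are annotated RNAs of a gene that keep a stretch of sequence which other transcripts of the same gene remove by splicing. All transcripts that GENCODE release 29 types as retained introns within protein-coding genes were taken, which gave 27158 of the 251062 deposited transcripts, in 9186 of 19867 protein-coding genes. A gene held a median of 2 such transcripts and at most 35. Of the 27158, 22738 had a count in some library and 4420 were at 0 in every library, while 12995 passed the filter on low counts and 14163 did not. The measure used throughout is the share: the expected counts of a gene's retained-intron transcripts as a percent of the expected counts of all its transcripts. Expected counts are reads divided among transcripts by the RSEM program.

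The libraries are labelled as wild-type Huh7, a human line from a hepatocellular carcinoma. Of the 6 libraries, 3 were from cells kept at 21% oxygen (normoxia, C1 to C3) and 3 from cells kept at 1% oxygen (hypoxia, C4 to C6), both for 24 h and with no other agent named, so the design allows 1 comparison, hypoxia against normoxia. Total RNA was depleted of ribosomal RNA. How the cultures behind the replicates were kept apart is not described, and p-values therefore measure how far these libraries spread, which may in part be technical.

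Library totals of expected counts ran from 37621426 to 40794783, of which retained-intron transcripts held 1673659 to 1735975 in normoxia and 1870963 to 2006592 in hypoxia. Of 20 markers of hepatocytes, the cell type from which the line's tumour arises, 16 were under 1 CPM (counts scaled to a common library size) in both groups and 6 had 0 counts, alpha-fetoprotein (AFP) among them, while the urea cycle enzyme CPS1 stood at 2157 and 1755 CPM. Of 10 epithelial and trophoblast markers, 4 were under 1 CPM in both groups, among them the epithelial adhesion genes EPCAM (0 and 0.029 CPM) and CDH1 (0.297 and 0.047 CPM). The highest of that list were CGA, the alpha subunit of chorionic gonadotropin and other glycoprotein hormones, at 1328 and 896 CPM, the keratin KRT18 at 501 and 373 CPM and the placental alkaline phosphatase ALPP at 192 and 135 CPM. The absent hepatocyte markers go against the labelled origin of the line in all 6 libraries, so Huh7 is used here as the label gives it. In bulk RNA, fewer cells of a type and less RNA per cell cannot be told apart.

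An intron is recognised by the spliceosome through short sequences at its ends, nearly always GT at its start and AG at its end, with a run of pyrimidines before the AG. Short introns with high GC content and weak ends are the ones most often left in mammalian mRNA. A transcript that keeps an intron is commonly held in the nucleus, and if exported is often destroyed by nonsense-mediated decay, which acts on mRNAs with an early stop codon. Some genes, many of them encoding splicing factors, use introns kept in this way (detained introns) to hold a nuclear reserve of RNA or to limit their own protein.

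The retained introns below were chosen because they lie whole within the most counted retained-intron transcript of a gene described here and are short enough to print. Each is an intron of the gene's most counted coding transcript, with coding sequence of some transcript of the gene on both sides. They are read from the GENCODE release 29 transcripts on GRCh38. The first 3 belong to genes whose share rose most in hypoxia, the next 3 to a splicing kinase, an RNA exosome subunit and a gene known for a detained intron, and the last 2 to genes whose share fell. The intron printed for that gene, MAT2A, was not matched to its known detained intron. Capitals mark the GT and AG at the intron ends, and 3 exon bases stand on each side.
DDX41, intron 1 of 15, chr5:177516448-177516724, minus strand: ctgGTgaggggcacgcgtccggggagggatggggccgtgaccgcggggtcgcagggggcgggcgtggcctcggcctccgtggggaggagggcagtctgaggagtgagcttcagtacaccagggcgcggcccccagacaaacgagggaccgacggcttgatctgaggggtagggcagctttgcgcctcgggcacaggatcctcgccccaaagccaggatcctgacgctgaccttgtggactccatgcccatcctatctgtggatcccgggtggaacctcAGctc
SMTN, intron 12 of 20, chr22:31095456-31095533, plus strand: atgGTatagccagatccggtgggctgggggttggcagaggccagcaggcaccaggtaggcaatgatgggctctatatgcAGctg
ZNF181, intron 2 of 3, chr19:34739269-34739525, plus strand: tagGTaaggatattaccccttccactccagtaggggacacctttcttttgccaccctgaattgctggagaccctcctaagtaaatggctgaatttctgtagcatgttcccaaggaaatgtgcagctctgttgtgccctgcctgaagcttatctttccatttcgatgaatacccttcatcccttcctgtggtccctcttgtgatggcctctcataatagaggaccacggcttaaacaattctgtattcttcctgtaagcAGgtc
CLK3, intron 4 of 12, chr15:74622217-74622493, plus strand: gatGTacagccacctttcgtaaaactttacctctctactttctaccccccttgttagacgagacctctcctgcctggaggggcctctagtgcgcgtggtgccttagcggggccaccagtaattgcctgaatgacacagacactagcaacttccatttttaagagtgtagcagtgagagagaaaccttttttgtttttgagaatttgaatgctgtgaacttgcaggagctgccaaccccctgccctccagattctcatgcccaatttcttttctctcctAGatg
EXOSC10, intron 15 of 24, chr1:11077444-11077600, minus strand: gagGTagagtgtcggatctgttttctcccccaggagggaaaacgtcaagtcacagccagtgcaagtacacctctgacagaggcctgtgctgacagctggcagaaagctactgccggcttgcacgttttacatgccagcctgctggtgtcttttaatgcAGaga
MAT2A, intron 6 of 8, chr2:85542374-85542564, plus strand: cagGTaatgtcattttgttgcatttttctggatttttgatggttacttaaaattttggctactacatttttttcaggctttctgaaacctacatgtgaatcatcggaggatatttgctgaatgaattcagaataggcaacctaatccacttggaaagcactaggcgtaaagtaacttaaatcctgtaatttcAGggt
TRPV1, intron 4 of 16, chr17:3591117-3591186, minus strand: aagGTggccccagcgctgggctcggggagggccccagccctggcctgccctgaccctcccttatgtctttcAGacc
SCART1, intron 7 of 11, chr10:133464912-133465105, plus strand: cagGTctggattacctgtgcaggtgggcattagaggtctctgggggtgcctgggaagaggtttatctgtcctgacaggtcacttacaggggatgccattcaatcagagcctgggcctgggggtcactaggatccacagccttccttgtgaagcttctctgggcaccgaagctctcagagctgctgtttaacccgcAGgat

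These introns are 70 bases (TRPV1) to 277 bases (DDX41 and CLK3) long. GC content is lowest in MAT2A at 34.0% and highest in TRPV1 at 71.4%, with DDX41 at 68.2%. Only the SMTN intron, of 78 bases, is a multiple of 3, so that the other 7, when kept, would shift a reading frame that runs across them. Some of the transcripts shown keep further introns of their gene: that of SCART1 keeps 3 in all, that of SMTN 3, that of EXOSC10 2 and that of CLK3 2.

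Across the whole set, length could be taken only for introns held whole. Of the 27158 retained-intron transcripts, 7050 held an intron of the gene's most counted coding transcript whole, of 50 bases or more. Another 18253 held none but started or ended inside such an intron, and for 1855 neither was the case. Over 7620 introns held whole, the median length was 238 bases, against 1511 bases for 105608 other introns of the same genes. To be counted, an intron had to fit within an exon of a retained-intron transcript, so the definition itself favours short ones. Among the 7458 of them in transcripts whose deposited length is that of release 29, the median GC content was 57.0%, 98.8% began with GT and 99.8% ended with AG. Their median position was 67.7% of the way along the gene from its start. The median retained-intron transcript was 752 bases long, against 1569 bases for coding transcripts of the same genes, and a median of 261 of its bases lay outside the exons of every other kind of transcript of the gene. For 657 of the 27158 there was no such base.

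**Figure D1:**
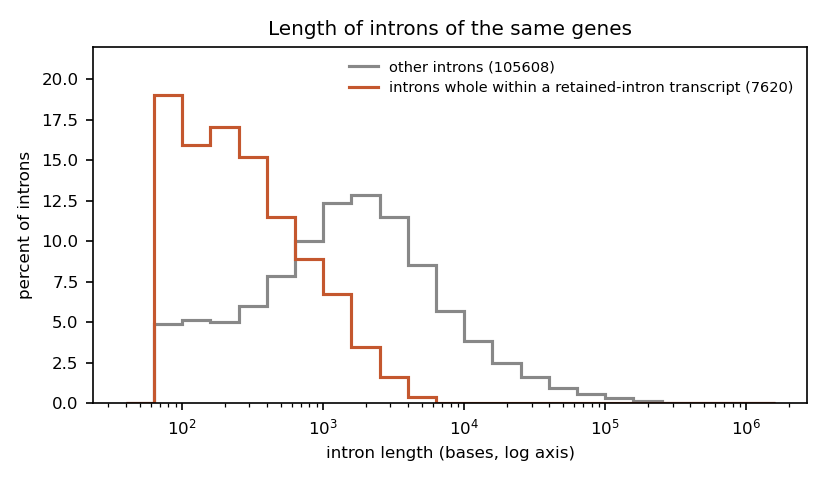
Length of introns (bases, log axis) against the percent of introns in each length class, for the 7620 introns that lie whole within a retained-intron transcript and for 105608 other introns of the same genes. Introns held whole have a median of 238 bases and the others 1511, and the retained class has its highest bin at the short end.

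The share of all protein-coding counts that fell on retained-intron transcripts was higher in hypoxia. It was 5.36%, 5.16% and 5.16% in the normoxia libraries and 6.50%, 6.50% and 6.47% in the hypoxia libraries. Every hypoxia library stood above every normoxia library, and the spread within either group was far smaller than the gap. The means were 5.22% ± 0.114 and 6.49% ± 0.016 (SD, n = 3), a difference of 1.27 percentage points or 1.24-fold, with a two-sided exact permutation p of 0.1, the smallest that 3 against 3 libraries allow.

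The size of the difference depended on how the share was summed. Counts of the mitochondrial genome, whose genes have no introns, went from 7.89% to 2.95% of protein-coding counts, and without them the shares were 5.67% ± 0.119 and 6.69% ± 0.021 (SD, n = 3). Without the 50 genes with the most retained-intron counts they were 4.29% and 5.11%, and with counts divided by transcript length (FPKM recomputed from the deposited counts and lengths), 6.24% and 7.78%. The median share over 5862 genes with at least 200 counts in every library was 5.17% ± 0.216 in normoxia and 6.12% ± 0.058 in hypoxia (SD, n = 3). In each of these the 3 hypoxia libraries stood above the 3 normoxia libraries.

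**Figure D2:**
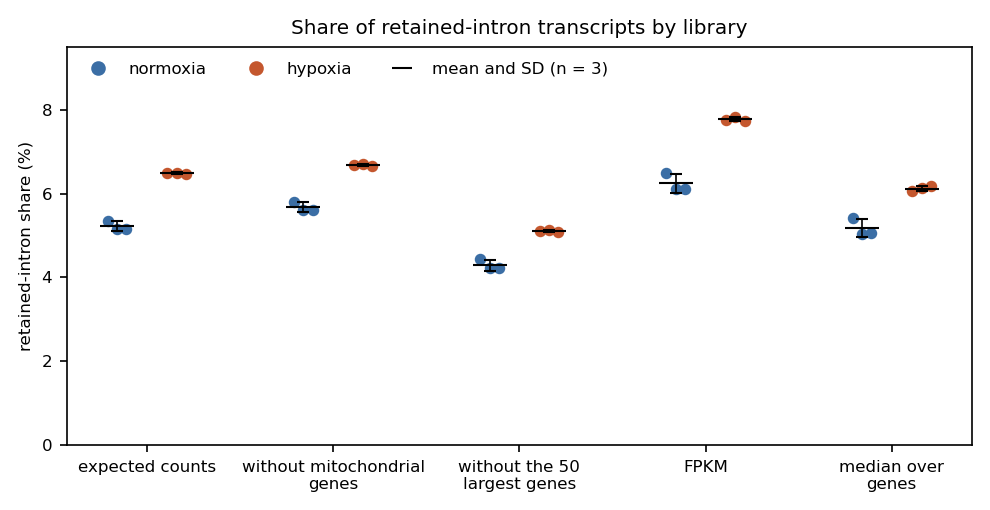
Retained-intron share (percent) in each library, for all expected counts of protein-coding genes, without mitochondrial genes, without the 50 genes with the most retained-intron counts, on FPKM recomputed from counts and lengths, and as the median over genes. Points are libraries, and bars give the mean and SD (n = 3 per group), for instance 5.22% in normoxia and 6.49% in hypoxia for expected counts.

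Of the 1.27 points, 0.857 came from changed shares within genes and 0.411 from changes in how much each gene contributed to the total. The largest single contribution was from NDRG1, a gene well known to be induced by low oxygen: its retained-intron transcripts went from 0.0016% to 0.157% of all protein-coding counts, which is 0.155 points. The golgin gene GOLGA8A added 0.0487 points, the angiogenic growth factor VEGFA 0.0446, DDX41 0.0434 and the ubiquitin ligase adaptor WSB1 0.0401. These genes were picked for the size of their contribution after the values were seen. In GOLGA8A, VEGFA and WSB1 most of the contribution came from the gene's higher total: GOLGA8A was at a share of 92.7% in normoxia and 91.3% in hypoxia, and shares did not pass the test in any of the 3 genes (edgeR adjusted p = 0.85, 0.075 and 0.13). GOLGA8A has near-identical copies in the genome, so its counts are uncertain. On the other side, the contribution of the ribosomal protein gene RPL4 fell by 0.0287 points, nearly all through the gene's lower total.

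Per gene, retained-intron and other transcripts were summed and their balance tested in 5729 genes with edgeR's quasi-likelihood test and Benjamini-Hochberg adjustment at 0.05. The share rose in 917 genes, which is 16% of those tested, and fell in 187, which is 3.26%. It did not pass in 4625. The median log2 change of the share over all tested genes was 0.21. Groups did not overlap with hypoxia higher in 1775 genes (31%) and with hypoxia lower in 499 (8.71%). Among risen genes, 213 rose by 10 points or more and 234 at least 2-fold, while 32 genes fell by 10 points or more and 89 at least 2-fold.

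A higher share can come from more retained-intron RNA, from less of the other RNAs of the gene, or from both. Among the 917 risen genes, retained-intron CPM was higher and that of other transcripts lower in 378, both were higher in 420 and both lower in 119. Retained-intron RNA itself was at a higher mean level in 798 of the 917. Genes picked for a higher share lean that way by the choice, and the same count over all tested genes was not made. Among the 187 fallen genes, retained-intron CPM was lower and the other transcripts higher in 76, both were lower in 92 and both higher in 19. Shares rose in 22.2% of the 1952 genes whose total also rose, in 13.5% of the 2711 whose total fell and in 11.1% of the 1066 whose total did not pass. Falls made up 3.38%, 3.10% and 3.47% of the same groups.

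**Figure D3:**
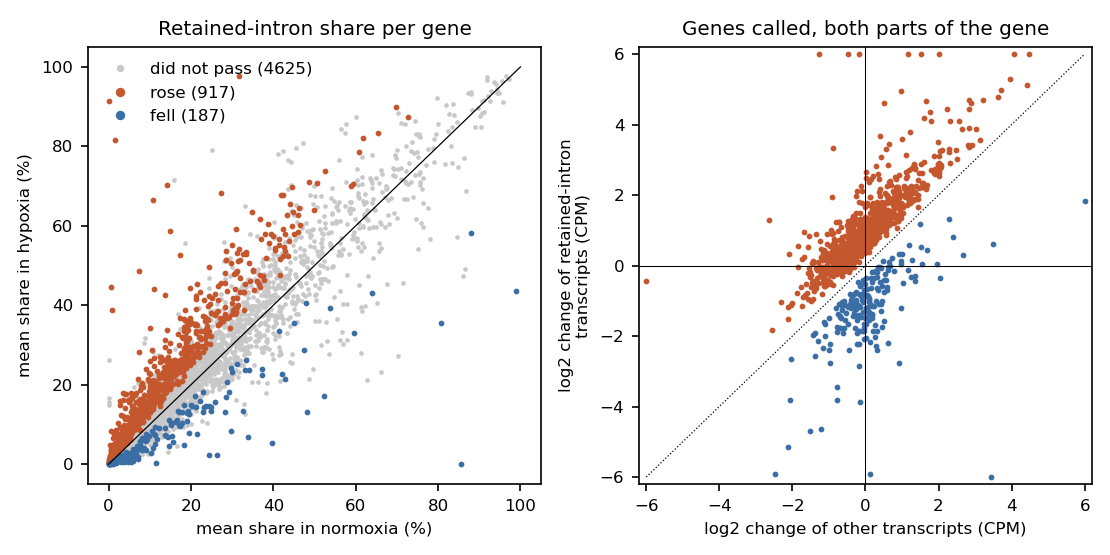
Left, mean retained-intron share of each tested gene in hypoxia against normoxia (percent); 917 genes that rose lie above the diagonal, 187 that fell below it, and 4625 that did not pass are grey. Right, for the called genes, the log2 change of retained-intron CPM against that of the gene's other transcripts, with values beyond 6 in size drawn at the edge; the dotted line marks equal change and 420 risen genes lie in the upper right quadrant.

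Other kinds of transcript of protein-coding genes were put through the same test for comparison. For transcripts typed as targets of nonsense-mediated decay, the share rose in 117 (3.54%) and fell in 79 of 3305 genes, with a median log2 change of 0.09. For those typed as processed transcripts it rose in 199 (5.06%) and fell in 75 of 3930 genes, with a median of 0.19. The difference between the kinds of transcript was not tested.

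The largest rise in percentage points was in TRIOBP, an actin-binding protein. Its share was 0.293%, 1.02% and 0.206% in normoxia and 43.2%, 46.6% and 43.9% in hypoxia, so the groups were far apart. Retained-intron CPM went from 0.338 to 119 and that of the other transcripts from 65.8 to 147. The log2 change of the share was 6.43 ± 0.24 (SE, edgeR adjusted p = 2.0e-09). Nearly all of the retained-intron counts, 99.5%, were assigned to TRIOBP-211 (chr22:37697621-37726570), a transcript of 3948 bases that holds no intron whole and has 67 bases outside the exons of other kinds of transcript. Its counts thus rest mostly on exons that it shares.

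In DDX41, a DEAD-box RNA helicase found with the spliceosome, retained-intron transcripts became the majority. Shares were 15.5%, 14.5% and 15% in normoxia and 58.2%, 58.5% and 59.2% in hypoxia, so the groups were far apart beside the spread within them. Retained-intron CPM went from 15.4 to 389 while the other transcripts went from 87.0 to 275, and the log2 change of the share was 1.96 ± 0.05 (SE, edgeR adjusted p = 7.6e-13). DDX41-202, which keeps intron 1 printed above, held 78.3% of the retained-intron counts. Of its 2375 bases, 208 lie outside the exons of other kinds of transcript, fewer than the 277 of that intron. Its counts thus rest mostly on shared exons. On its own DDX41-202 went from 8.0% ± 0.651 to 46.6% ± 0.362 of the gene's counts (SD, n = 3).

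The other large rises were in genes of lower levels or with several retained-intron transcripts. C17orf67 went from 27.3% ± 1.43 to 68.2% ± 0.945 and C7orf50 from 17.3% ± 1.79 to 52.6% ± 2.75 (SD, n = 3). C7orf50 is a case where the total fell: its other transcripts went from 17.2 to 4.75 CPM and its retained-intron transcript from 3.60 to 5.27. FNTB, the beta subunit of protein farnesyltransferase, went from 13.7% to 42.5%, and SBF2, a pseudophosphatase of the myotubularin family, from 30.9% to 59.2%. SMTN, the cytoskeletal protein smoothelin, went from 28.4% ± 1.83 to 53.8% ± 0.073 (SD, n = 3) while both parts of the gene rose, retained-intron CPM from 8.46 to 146 and the others from 21.4 to 126. Bases outside the exons of other kinds of transcript made up 16.3% of the most counted retained-intron transcript in C17orf67 and 6.06% in FNTB. They made up 96.9% in C7orf50, 95.1% in SBF2 and 49.2% in SMTN. GPCPD1, IQCG, LMBR1L, ZNF181 and RASA4B complete the 12 largest rises, with rises of 25.2 to 28.6 points. The zinc finger gene ZNF181 had the widest hypoxia spread, 48.8%, 68.7% and 48.3%, and its adjusted p went to 0.068, 0.081 and 0.10 without libraries C1, C3 and C5 in turn. RASA4B has a near-identical copy, RASA4, so its counts are uncertain.

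The largest fall was in TMEM45A, a transmembrane protein, where retained-intron RNA made up most of the gene in normoxia. Its share was 88.0%, 88.3% and 87.4% in normoxia and 59.5%, 56.8% and 58.5% in hypoxia. The groups did not overlap, and the log2 change was -0.59 ± 0.08 (SE, edgeR adjusted p = 6.4e-05). The retained-intron CPM did not go down, at 272 and 333, while that of the other transcripts went from 37.4 to 238. TMEM45A-207 (chr3:100568924-100577444), the single retained-intron transcript, has 3455 of its 4615 bases outside the exons of other kinds of transcript.

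HM13, the signal peptide peptidase of the endoplasmic reticulum, gave a fall in which retained-intron RNA itself was lower. Shares were 26.6%, 28.3% and 29.9% in normoxia and 12.8%, 12.4% and 14.5% in hypoxia. Its retained-intron CPM went from 28.1 to 12.8 and the others from 71.5 to 84.0 CPM, with a log2 change of the share of -1.10 ± 0.09 (SE, edgeR adjusted p = 3.6e-07). MOGS, the first glucosidase of N-glycan trimming, went from 28.5% ± 1.46 to 16.9% ± 2.10, and retained-intron CPM from 21.6 to 10.6.

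Among the rest of the 12 largest falls, BSCL2, which encodes the lipid droplet protein seipin, went from 33.9% ± 3.56 to 6.91% ± 5.65 (SD, n = 3), with hypoxia libraries from 0.968% to 12.2%. The keratin KRT8 went from 47.5% to 28.8% and the muscle adenylosuccinate synthase ADSS1 from 64.1% to 43.0%. The heat and capsaicin channel TRPV1 went from 19.5% ± 3.0 to 7.79% ± 0.682 (SD, n = 3), with TRPV1-208, which keeps the 70-base intron printed above, holding 99.4% of the retained-intron counts. Bases outside the exons of other kinds of transcript made up 7.23% of the most counted retained-intron transcript in BSCL2 and 2.65% in TRPV1. They made up 39.1% in KRT8 and 47.4% in ADSS1. WBP1, ZNF444, FBRSL1 and MELTF fell by 13.2 to 19.4 points, and ZNF444 lost its call without library C2 (edgeR adjusted p = 0.10) or C4 (0.098). SCART1 fell by 14.7 points with an edgeR adjusted p of 0.0496, which ranged from 0.050 to 0.37 over the alternatives in which it lost its call.

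**Figure D4:**
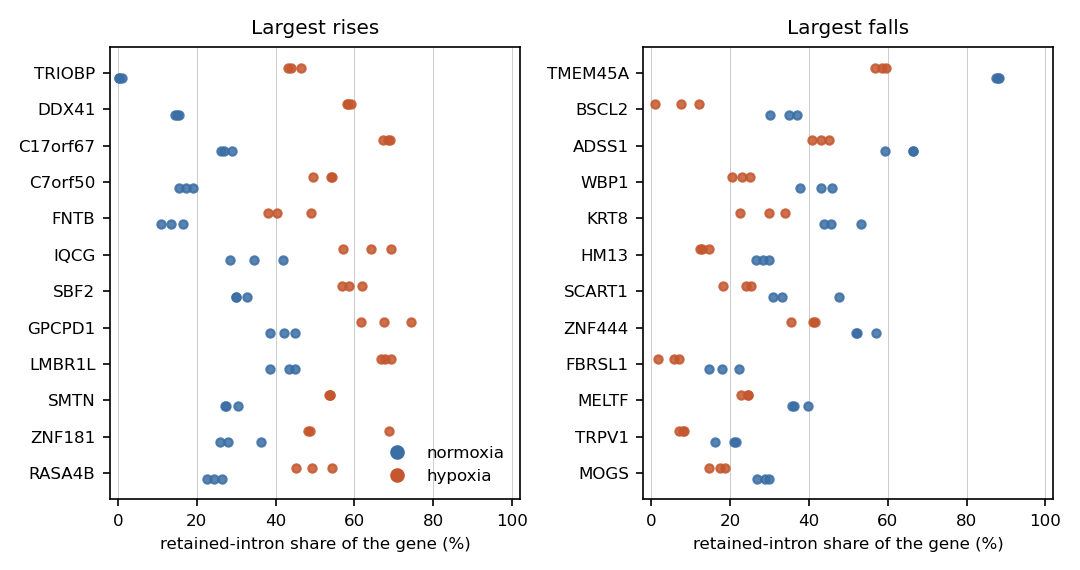
Retained-intron share (percent of the gene's expected counts) in each library for the 12 genes with the largest rises (left) and the 12 with the largest falls (right). Points are single libraries, blue for normoxia and orange for hypoxia; in each of these genes the groups do not overlap, as in DDX41 with 14.5% to 15.5% against 58.2% to 59.2%.

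SR proteins, splicing activators with domains rich in arginine and serine, were followed because they control splice site use and keep introns or poison exons in their own RNA. Rises passed the test in 7 of the 10 tested genes and falls in 0, against 16% rising and 3.26% falling of all genes tested. The list's median log2 change stood at 0.42, where that over all tested genes was 0.21. This list and those that follow were chosen with earlier results of these data known, so they are no independent evidence. SRSF1, SRSF3, SRSF5 and TRA2B stood at 252, 217, 106 and 215 CPM in normoxia. The median over both groups was 36.1 CPM in genes that did not pass, and with more counts smaller differences can be called. SRSF5 rose most in points: 37.4%, 36.9% and 36.1% in normoxia and 63.2%, 61.5% and 60.6% in hypoxia, with no overlap and a log2 change of 0.75 ± 0.05 (SE, edgeR adjusted p = 7.85e-08). Its retained-intron CPM went from 38.8 to 97.3 and that of its other transcripts from 66.7 to 60.1. SRSF5-212, the transcript with the most of these counts, keeps intron 5 of the gene's coding transcript, of 1215 bases. Only 127 bases of SRSF5-212 lie outside the exons of other kinds of transcript. Most of that intron is thus also exon in other SRSF5 transcripts.

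In several other SR genes the total fell while the share rose. TRA2B was at 72.6% ± 0.805 in normoxia and 87.3% ± 0.493 in hypoxia (SD, n = 3), with the other transcripts going from 58.8 to 19.7 CPM and retained-intron CPM from 156 to 135. SRSF3 went from 35.0% ± 1.85 to 48.6% ± 2.48 and its partner SRSF1 from 1.46% ± 0.287 to 3.43% ± 1.36 (SD, n = 3). SRSF1-202 overlaps exons on the opposite strand over 403 bases, and since it is not stated whether counting used the strand, reads of the 2 strands cannot be told apart there. SRSF4, SRSF7 and SRSF10 did not pass, at log2 changes of 0.15, 0.00 and -0.07.

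Kinases that phosphorylate SR proteins gave 3 rises and 0 falls among 8 tested, where 16% of all tested genes rose and 3.26% fell. Their median log2 change was 0.38, beside 0.21 over all tested genes. CLK3, whose kinase family releases SR proteins from nuclear speckles, was at 23.4%, 20.3% and 26.2% in normoxia and 31.6%, 30.9% and 33% in hypoxia. Its total rose, with retained-intron CPM from 15.4 to 54.4 and the others from 50.6 to 117. PRPF4B (3.59% to 5.42%) and SRPK1 (3.35% to 4.87%) also rose, with falling totals. PRPF4B-203, the only retained-intron transcript of PRPF4B, has 0 bases outside the exons of other kinds of transcript, so its counts rest on shared exons. CLK1, known for detained introns, stood at 53.4% and 58.2% with a log2 change of 0.12 that did not pass, although its total rose by 2.61 on the log2 scale.

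Among hnRNP proteins and related regulators, RNA-binding proteins that often block splice sites, 27 genes were tested, of which 9 rose and 1 fell, beside 16% and 3.26% of all tested genes. The list's median log2 change was 0.30 and that of all tested genes 0.21. HNRNPA2B1 rose from 18.7% ± 1.03 to 28.0% ± 0.513 (SD, n = 3) with its other transcripts going from 593 to 302 CPM and its retained-intron ones from 136 to 117. HNRNPK and PCBP2, both poly(C)-binding, went from 1.35% to 2.78% and from 6.06% to 9.14%, and HNRNPU, a nuclear scaffold protein, from 21.9% to 28.0%. For HNRNPK, PCBP2 and HNRNPU the most counted retained-intron transcript overlaps opposite-strand exons. The 1 fall, named after its value was seen, was RBM25, at 43.6%, 45.6% and 45.8% in normoxia and 38.6%, 31.2% and 36.7% in hypoxia (edgeR adjusted p = 0.0036).

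The core spliceosome gave 7 rises and 2 falls among 32 tested genes, near the 16% and 3.26% over all tested genes. The median log2 change was 0.23, beside 0.21 over all tested genes. SRRM1, a coactivator that bridges SR proteins and snRNPs, rose from 8.88%, 8.71% and 9.13% to 14.3%, 13.4% and 15.6%, with SRRM1-205 keeping intron 3 and holding 88.6% of these counts. SF1, the branch point binding protein, went from 6.76% to 11.5%, SF3B2 of the U2 snRNP from 3.58% to 5.68% and the scaffold SRRM2 from 7.43% to 10.0%. In SF1 retained-intron CPM went from 15.3 to 14.5 and that of the other transcripts from 212 to 112. SNRNP70 of the U1 snRNP fell from 16.9% to 13.4% and SNRPA1 of the U2 snRNP from 16.2% to 10.6%, both named after their values were seen.

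The list of nuclear RNA surveillance and export gave 7 rises and 1 fall among 19 tested, with a median log2 change of 0.34. Over all tested genes 16% rose, 3.26% fell and the median was 0.21. DDX39B, a helicase that loads the export factors of mRNA, was at 62.2%, 62.0% and 60.9% in normoxia and 83.2%, 82.4% and 81.1% in hypoxia. Its total did not pass the test, and its other transcripts went from 111 to 50.1 CPM as the retained-intron ones went from 178 to 232. The exosome ribonuclease EXOSC10 rose from 7.92% ± 0.601 to 14.5% ± 1.24 (SD, n = 3), and without transcripts that overlap opposite-strand exons its log2 change was larger, 1.35 against 0.87, with an edgeR adjusted p of 0.057. SMG5 of the decay of mRNAs with early stops went from 2.14% to 4.68% and PABPN1, which binds poly(A) tails in the nucleus, from 2.37% to 3.76%. The exosome core subunit EXOSC3, named after its value was seen, fell from 14.5% to 6.85% (edgeR adjusted p = 0.011).

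Genes known for detained introns numbered 13 among those tested, with 5 rises, 0 falls and a median log2 change of 0.37, against 16%, 3.26% and 0.21 over all tested genes. MAT2A makes the methyl donor S-adenosylmethionine. Its share was 4.60%, 4.22% and 4.61% in normoxia and 6.01%, 5.89% and 5.85% in hypoxia, with no overlap but a narrow gap (log2 change 0.40 ± 0.06 SE, edgeR adjusted p = 1.9e-04). Retained-intron CPM of MAT2A went from 36.6 to 34.3 and that of its other transcripts from 781 to 546. The RNA helicase DDX5 went from 45.0% ± 1.51 to 58.0% ± 1.40 (SD, n = 3) as its other transcripts went from 323 to 196 CPM and retained-intron CPM stayed between 265 and 270. OGT, the O-GlcNAc transferase, was already at 79.9% in normoxia and stood at 85.6% in hypoxia, which did not pass (edgeR adjusted p = 0.54). Its main retained-intron transcript, OGT-210, keeps intron 4. Of the 7243 bases of OGT-210, 3201 lie outside the exons of other kinds of transcript. For DDX5-215, the most counted of DDX5, it is 448 of 3558.

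Targets of HIF, the transcription factor stabilised at low oxygen, and enzymes of glycolysis gave 16 rises and 0 falls among 30 tested, beside 16% and 3.26% over all tested genes, and a median log2 change of 0.70, beside 0.21. The list was drawn up with results for these samples known, so it is no independent evidence of a direction. The changes in points were small for most, with a median of 0.946 points, since shares in these genes were low. The larger rises included PFKL, the liver type of phosphofructokinase, from 13.9% to 24.4%, ANKRD37 from 6.74% to 15.6% and the enolase ENO2 from 4.88% to 11.0%, which were named after their values were seen. NDRG1 was at 3.43%, 2.98% and 3.95% in normoxia and 18.3%, 17.1% and 18.0% in hypoxia (log2 change 2.37 ± 0.07 SE, edgeR adjusted p = 7.6e-13). Both parts of NDRG1 rose, the other transcripts from 369 to 6215 CPM and the retained-intron ones from 13.2 to 1346 CPM.

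Among glycolytic enzymes, ENO1 rose from 4.01%, 4.42% and 4.07% to 8.27%, 8.54% and 8.32%. GAPDH, by far the most counted of the list, went from 0.358% ± 0.023 to 0.599% ± 0.027 (SD, n = 3), and LDHA, which turns pyruvate into lactate, from 1.61% ± 0.098 to 2.46% ± 0.157. GAPDH-206 keeps 4 introns of its coding transcript in a row. These 3 genes have many processed pseudogenes, and GAPDH-206 overlaps opposite-strand exons over 389 bases, so their counts are uncertain. The targets DDIT4 (21.4% and 19.6%), SLC16A3 (7.13% and 7.17%) and ALDOA (4.60% and 4.76%) did not pass, although the totals of these genes rose by 2.37, 1.43 and 1.59 on the log2 scale.

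Intron retention at low oxygen has been reported in other cells for EIF2B5, LDHA, TNFSF13 and ARHGAP4. EIF2B5, the catalytic subunit of a translation initiation factor complex, was at 37.1%, 37.7% and 38.7% in normoxia and 52.6%, 43.2% and 43.5% in hypoxia. Its retained-intron RNA was itself lower in hypoxia, at 22.1 and 16.1 CPM, and its other transcripts fell further, from 36.4 to 18.5 CPM. Its call was at the threshold (log2 change 0.30 ± 0.10 SE, edgeR adjusted p = 0.048), and without library C4, the highest, the log2 change was 0.20 and the adjusted p 0.31. ARHGAP4 stood at 52.0% ± 11.7 and 57.9% ± 8.25 (SD, n = 3), did not pass and overlapped between groups. TNFSF13 had no retained-intron transcript.

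**Figure D5:**
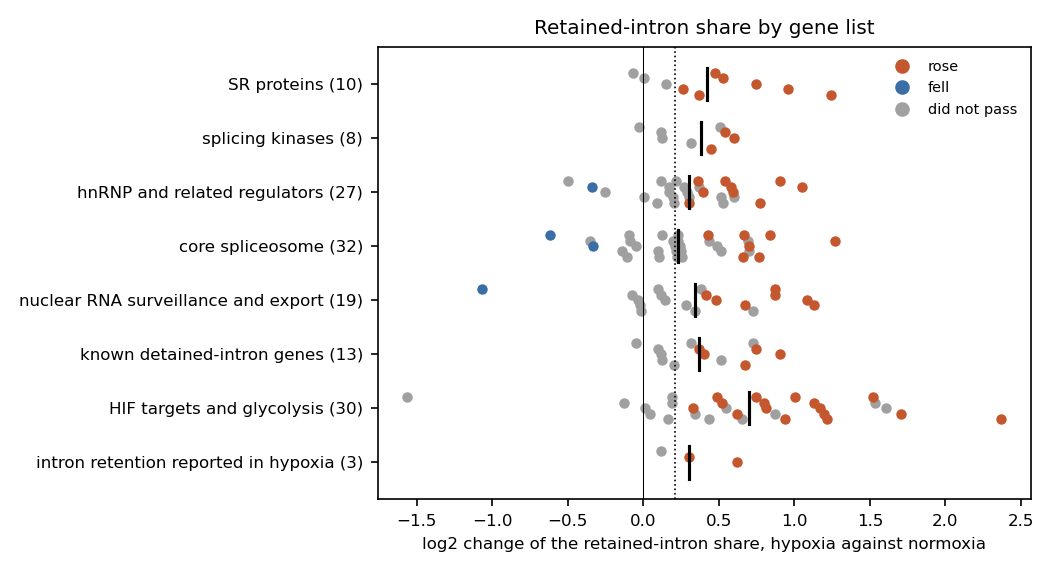
Log2 change of the retained-intron share, hypoxia against normoxia, for every tested gene of 8 lists (number tested in brackets). Points are genes, orange where the share rose, blue where it fell and grey where it did not pass; short black bars are list medians, from 0.23 for the core spliceosome to 0.70 for HIF targets and glycolysis, and the dotted line is the median of 0.21 over all tested genes.

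Single transcripts were tested as well, each against the rest of its gene, over 57576 transcripts of all kinds. Of the 12874 retained-intron transcripts in that test, 132 rose (1.03%) and 65 fell (0.505%) by edgeR's quasi-likelihood test, against 1.26% rising and 1.27% falling of all transcripts, so the share called was not above the background. Their median log2 change was 0.23, against 0.04 over all transcripts. Of the 132 and 65 called transcripts together, 156 belonged to genes whose summed share was called in the same direction. That sum includes the transcript itself, so the 2 calls are not independent. Single transcripts past the test included DDX41-202 (log2 change 2.53), TRIOBP-211 (7.34), NDRG1-212 (2.39), ENO1-203 (1.23) and SRRM1-205 (0.80) upward, and TMEM45A-207 (-0.59) and HM13-227 (-1.09) downward. Many of the called falls were in transcripts of ribosomal protein genes, such as RPL37A-208 (-2.53), RPS24-217 (-2.03) and RPS18-236 (-2.23). RPL3-208 was a called rise (7.88), from low counts. These ribosomal protein transcripts were named after their values were seen.

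Levels, as against shares, were tested for 12995 retained-intron transcripts. Levels rose for 2238 (17.2%) and fell for 1167 (8.98%), whereas of all 63530 transcripts tested 16.8% rose and 15% fell. Risen ones were 65.7% of the called retained-intron transcripts and 52.7% of all called transcripts. When libraries were scaled by their totals in place of TMM factors, 1925 rose and 1463 fell, so risen ones were 56.8% of those called.

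Some retained-intron transcripts carry small RNA genes in the sequence they keep, and these were picked after their values were seen. In all, 179 did, with 2.91% of retained-intron counts in normoxia and 2.35% in hypoxia. The most counted is VMP1-216, at the end of the autophagy gene VMP1, whose exons span the gene of the microRNA MIR21. It held 47.2% ± 1.43 of VMP1 counts in normoxia and 68.1% ± 1.14 in hypoxia (SD, n = 3, edgeR adjusted p = 0.025), and all retained-intron transcripts of VMP1 went from between 64.6% and 66.0% to between 82.9% and 84.1%. DDX39B-219, which spans SNORD84, stood at 17.5% and 24.1%, and EIF4A2-219, which spans several small nucleolar RNA genes, at 14.9% and 10.8%, neither of which passed. Falls that passed included RACK1-230, which spans SNORD96A, from 3.19% to 1.27% (edgeR adjusted p = 6.5e-06). RPL4-214, which spans SNORD16 and SNORD18C, went from 2.32% to 0.971% (edgeR adjusted p = 0.0095). RPL13-212, which spans SNORD68, went from 1.75% to 0.671% (edgeR adjusted p = 0.011). Whether reads of the small RNAs themselves were counted in these transcripts was not tested.

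Features of the retained introns were set side by side by the gene's outcome, without a test. Introns held whole had a median length of 254 bases in risen genes, 278.5 in fallen genes and 229.5 in genes that did not pass. Their median GC content was 55.8%, 53.2% and 57.3%, and the pyrimidine content before the AG had a median of 77.8% in all 3 groups. Median positions along the gene were 68.8%, 54.8% and 68.6%, so introns of fallen genes, 250 in 103 genes, lay nearer the middle. Median gene CPM was 73.9 in risen genes, 132 in fallen genes and 36.1 in genes that did not pass, and with more counts smaller differences can be called.

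Retained-intron transcripts share exons with the other transcripts of their gene, so the division of reads between them is an estimate of the program and not a direct count of reads within introns. Total RNA includes RNA that is not yet spliced, so introns kept in finished RNA and introns not yet removed cannot be told apart.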

How the data were processed

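RNA-seq libraries of cells labelled Huh7 in normoxia and hypoxia (3 each) were strand-specific and rRNA-depleted, per the labels' protocols. The submitters' processing notes name cutadapt, HISAT2, RSEM and GRCh38. Which versions and annotation were used, and whether reads were counted by strand, is not given in the sources used here. A single deposited table holds, for each transcript, its length and each library's expected count from the authors. Column names give each library's condition, and their numbers (C1 to C6) match no replicate number of the labels. The 6 further per-sample columns, of FPKM, are in no value given here, because their names too show only the group. FPKM for the overall share were instead recomputed from counts and deposited lengths, which are not effective lengths. The overall share had first been computed on the deposited FPKM, where hypoxia exceeded normoxia by more points than on the recomputed ones.

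Transcripts were joined to GENCODE release 29 by identifier: 202907 of 251062 had a gene, and the other 48155, with 6.12% to 6.39% of each library's counts, were left out. Expected counts were rounded, filtered with filterByExpr and scaled by TMM factors from gene sums. Shares were tested with edgeR's glmQLFit and diffSpliceDGE and levels with glmQLFTest (edgeR 4.0.16, R 4.3.3), two-sided, with Benjamini-Hochberg adjustment over all genes or transcripts tested and a threshold of 0.05. SEs were taken as the log2 change over the root of the F statistic. Alternatives used limma 3.58.1, DESeq2 1.42.0, other filters, scalings and rows, and leaving out each library. CPM were computed on TMM-scaled libraries.

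The genes and lists were chosen with earlier results of these data known. Named genes are the 12 largest rises and falls in points among called genes whose groups did not overlap, with 200 or more counts in every library and no clone name, then up to 4 called members of each list with the most counts, and every tested gene of the list reported in hypoxia. Other names were chosen after their values were seen and are marked so, or come from the lists. Retained introns were defined by the gene's most counted coding transcript, a narrowing of the planned definition (introns of any other transcript) made after the data were seen.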

Additional observations from a re-analysis of the deposited data

How the results depend on the processing

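The overall difference of 1.27 points was 1.53 on recomputed FPKM, which stand in for the planned deposited ones, 0.817 without the 50 genes with the most retained-intron counts, 0.950 as the median over genes and 1.02 without mitochondrial genes. It ranged from 1.23 to 1.33 when each library was left out. Per gene, 917 rises and 187 falls became 480 and 116 when only transcripts that hold a whole intron were used. Fewer genes, 2475, could then be tested, and 388 and 89 of the calls were among the 917 and 187. Over the other alternatives rises numbered 653 to 1263 and falls 153 to 279. Leaving out a library gave 617 to 896 rises and 141 to 173 falls. Per transcript, 132 rises and 65 falls became 747 and 234 with limma's voom and diffSplice, and 254 and 124 with 10 or more counts in every library of a group. Leaving out a library gave 89 to 149 and 45 to 78. Levels, with 2238 rises and 1167 falls, gave 1559 to 1867 and 711 to 940 when a library was left out, and the fallen count was 755 without C1, 711 without C2 and 747 without C3. Except where a smaller number of genes or libraries is named, the cause was not tested.

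Of the 50 named genes with a call, 33 kept it under every alternative in which they could be tested. There were 16 alternatives, but TRIOBP, NDRG1 and ENO1, among others, were tested in only 15. So were C17orf67, C7orf50, TMEM45A and HM13, whose only retained-intron transcript holds no whole intron. Beyond those described with their values above, SRPK1 lost its call without C3, C5 or C6 (edgeR adjusted p = 0.16, 0.11 and 0.071), PRPF4B without C1, C2 or C6 (0.056, 0.068 and 0.088) and PABPN1 without C2, C5 or C6 (0.074, 0.062 and 0.060). EIF2B5 lost its call without C1, C2, C3 or C6 as well as C4 (edgeR adjusted p from 0.053 to 0.31). With limma on the log ratio with 0.5 added, BSCL2, SRSF1, CLK3, HNRNPU, SRRM2 and MAT2A missed the threshold, at adjusted p of 0.056 to 0.077. With transcripts that hold a whole intron only, WBP1, HNRNPK, SF3B2 and SRPK1 did not pass (edgeR adjusted p = 0.84, 0.74, 0.65 and 0.78), among the genes that could then be tested. OGT, WSB1 and EEF1A1 passed only with limma's diffSplice (adjusted p = 0.0059, 0.0032 and 0.010). ARHGAP4, called in no alternative, turned to a log2 change of -0.021 without C2.

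The alternatives without mitochondrial genes, with recomputed FPKM, with whole introns only, without transcripts that overlap opposite-strand exons and without those of another length than release 29 were added after seeing the data. Depth limits calls for genes of few counts. No paired analysis was possible because the library numbers of the columns match no replicate number in the labels.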
